A study of Arabidopsis thaliana with 9 samples.

Results

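A list of 60 class III peroxidase genes of Arabidopsis was followed in root tips of the near isogenic line (NIL) 170G-55-16, Cvi and Ler. Members were chosen by locus: a probe set was taken where the annotation of the Affymetrix ATH1 array, a microarray with 1 probe set for most Arabidopsis genes, assigns it to 1 of 60 listed class III peroxidase loci. Of these loci, 43 have a probe set of their own, and no locus has more than 1. Another 6 loci share 3 probe sets in pairs. These are counted, and values are given only for those on chromosome 2. The other 11 loci have no probe set in the annotation used and were not analysed here. The 43 probe sets stand beside 22746 probe sets on the array.

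NIL 170G-55-16, which the labels also call HGI2.1, Cvi (Cvi-1 in the labels) and Ler (Ler-2) were each measured on 3 arrays. The 2 accessions and the line share 1 growth regime. Seedlings were 5 d old, after 2 d on upright plates and 3 d on plates tilted back by 30°, and the labels name no cadaverine or other chemical treatment. RNA came from root tips of 7 mm, about 600 of them pooled for each array, and each pool was harvested separately. The labels do not say which segments of the NIL come from the other accession. The value of a probe set is a hybridization signal on a linear scale, and differences between genotypes are given as log2.

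Class III peroxidases are haem enzymes that plants secrete into the cell wall and the vacuole. They use hydrogen peroxide to oxidize phenolic compounds, which cross-links wall polymers and joins monolignols into lignin, and they can also release reactive oxygen species that loosen the wall. In roots the family is known for its part in the lignin of the Casparian strip and the xylem, in root hairs, and in the passage of cells from division to elongation.

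The gene tables used here give a name as a peroxidase to 7 of the 43 loci, and the others are called by locus. The named ones are PRX25 (AT2G41480), PRX52 (AT5G05340) and PRX72 (AT5G66390), which are known from lignin formation, PRX71 (AT5G64120) and Prx37 (AT4G08770), which are known to restrict growth through the cell wall, PER36 (AT3G50990), which is known from the release of seed coat mucilage, and PRXR1 (AT4G21960). No role is given here for a locus without such a name.

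The arrays had median signals of 109.6 to 122. Cvi array 1 stood apart: it correlated with the other Cvi arrays at r = 0.978 and 0.9804 across probe sets, while every other pair within a genotype reached at least 0.9961. Against the mean of Cvi arrays 2 and 3, it deviated by 2-fold or more at 4.55% of all probe sets and at 2 of the 43 peroxidases (4.65%), AT4G36430 and AT5G06730. For the 43 loci, both values are given where leaving it out changed a call or moved a difference across 2-fold. In a bulk sample such as a root tip, fewer cells of a type and less RNA per cell cannot be told apart. No detection calls were used, so a low signal is not a statement that a transcript was missing. Signals of different probe sets depend on the probes as well as on the transcript, so they are ranked only as brightness.

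Peroxidase probe sets covered almost the whole brightness range of the array, with signals between 7.65 and 8599. By mean signal, 12 of the 43 (27.9%) were among the brightest 10% of probe sets on the array. Another 10 (23.3%) were among the dimmest 33.3%, and 21 lay between. The bright ones had signals of 1208 to 8599 on single arrays, and the dim ones 7.65 to 59.8. These shares describe the probe sets and were not tested.

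**Figure D1:**
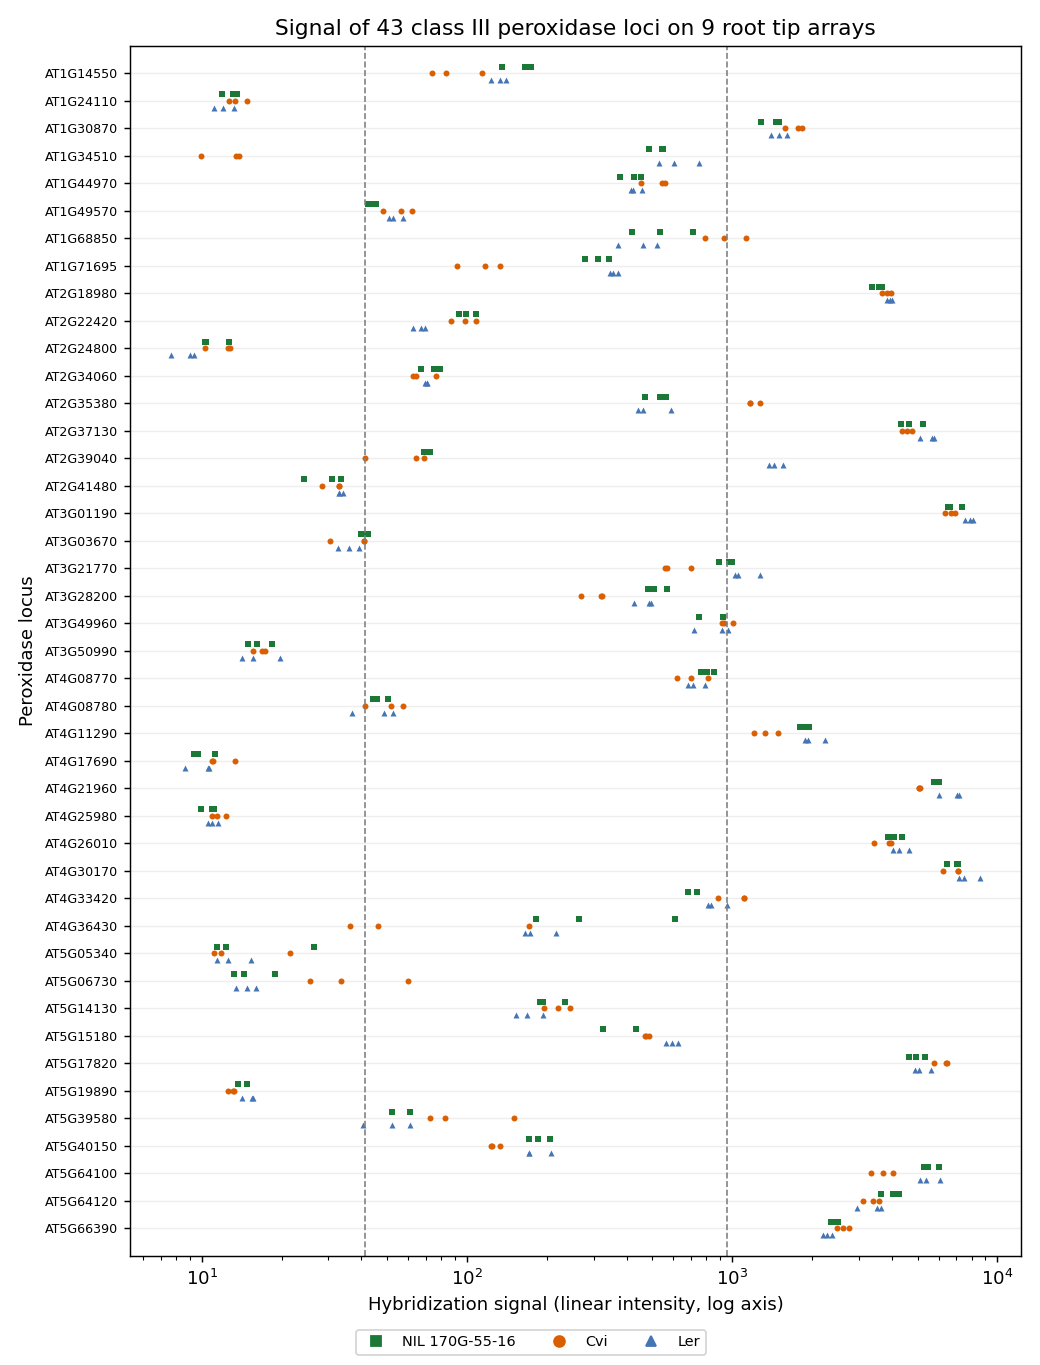
Signal of each of the 43 peroxidase loci (rows) on the 9 arrays (points, log axis of linear intensity), with NIL, Cvi and Ler drawn from top to bottom within a row. The dashed lines mark the upper bound of the dimmest 33.3% (41.4) and the lower bound of the brightest 10% (952), and AT1G34510 and AT2G39040 show a gap of more than 10-fold between genotypes.

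Of the 10 brightest peroxidase probe sets, 8 passed the test in no comparison. AT3G01190 gave 6510.0, 7367 and 6646 on the NIL arrays, 6678, 6327 and 6943 on the Cvi arrays, and 7889, 8112 and 7535 on the Ler arrays. AT4G30170 gave 7104, 7035 and 6469 in the NIL, 6220.4, 7083 and 7104 in Cvi, and 8599, 7507 and 7175 in Ler. Each Ler array lay above every NIL and Cvi array at both loci, and neither locus passed the test in any comparison. Such a separation of the arrays is described here and below without its share over all probe sets, and it is not a call. AT2G37130 gave 4346, 5260.1 and 4632 in the NIL, 4352, 4763 and 4543 in Cvi, and 5751, 5653 and 5105 in Ler. AT5G17820 gave 4639, 5325 and 4911 in the NIL, 6429, 5741 and 6387 in Cvi, and 5602, 4903 and 5067 in Ler. At AT5G17820 the Cvi arrays were the highest, without passing the test against the NIL (difference NIL minus Cvi of −0.32 on the log2 scale, adjusted p = 0.0805 in limma).

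PRX71 and PRX72 were among the brightest probe sets. PRX71, which is known to restrict growth through the wall, gave 4243, 4025 and 3646 on the NIL arrays, 3383, 3120.0 and 3579.8 on the Cvi arrays, and 3518, 3626 and 2949.9 on the Ler arrays. PRX72, known from lignin formation, gave 2384, 2359 and 2497 in the NIL, 2612, 2478 and 2747 in Cvi, and 2275, 2387 and 2206 in Ler. Neither passed the test in any comparison. Each NIL array of PRX71 lay above every Cvi and Ler array, and its signals overlapped between Cvi and Ler. Each Cvi array of PRX72 lay above every Ler array. AT4G26010 (3438 to 4649 over the 9 arrays) and AT2G18980 (3372 to 3996) did not pass either. The remaining bright loci of the 10, PRXR1 and AT5G64100, passed between Cvi and Ler and are described below.

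Of the other named peroxidases that are given a role here, PRX52, PRX25 and PER36 gave dim signals. PRX52 gave 26.6, 12.4 and 11.4 on the NIL arrays, 21.6, 11.8 and 11.1 on the Cvi arrays, and 12.6, 15.4 and 11.4 on the Ler arrays. PRX25 lay between 24.3 and 34.1 on all 9 arrays, and PER36 between 14.1 and 19.7. All 3 of these probe sets fall in the dimmest 33.3% of the array and none passed a test. Prx37 gave 853, 807 and 759.7 in the NIL, 621, 700.1 and 808 in Cvi, and 712, 787 and 683 in Ler, and did not pass either. Its neighbour on chromosome 4, AT4G08780, gave 36.9 to 57.4 over the 9 arrays and also did not pass. The 3 dimmest peroxidase probe sets were AT2G24800 (7.65 to 12.8), AT4G17690 (8.63 to 13.3) and AT4G25980 (9.92 to 12.3). Of these, AT2G24800 lay lower on every Ler array (9.39, 9 and 7.65) than on any NIL array (10.3, 10.3 and 12.7) or Cvi array (10.3, 12.8 and 12.6). It missed the threshold between Cvi and Ler (0.45, adjusted p = 0.0517 in limma) and passed without Cvi replicate 1 (0.55, adjusted p = 0.00535 in limma).

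The first comparison asked how the accessions Cvi and Ler differ. Each difference was tested with limma in 1 fit to all 9 arrays, and a probe set is called where its Benjamini-Hochberg adjusted p over the 22746 probe sets is under 0.05, at any fold. Between Cvi and Ler, 15 of the 43 peroxidases were called (34.9%), against a background of 13.0% of all probe sets. Of these, 5 were higher in Cvi (background 5.75%) and 10 were lower (background 7.27%). At a fold of at least 2, 6 were called (14.0% of the 43, background 3.88%), 3 of them higher and 3 lower in Cvi. With a 95% confidence interval that leaves out 0 in place of the adjusted p, 7 passed at 2-fold (16.3%, background 3.93%), AT4G36430 being the one more. The median difference over the 43 loci was 0.0, and it was 0.01 over all probe sets. The shares were not tested against the background. Of the 3 shared probe sets, 1 was called, lower in Cvi.

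AT1G34510, on chromosome 1, was lower in Cvi by the widest margin of the 43 loci. Its signal was 546, 548 and 486 on the NIL arrays, 9.91, 13.5 and 13.9 on the Cvi arrays, and 746, 529 and 602 on the Ler arrays. Cvi stood alone here: its signals lay in the range of the dimmest 33.3% of the array, and those of the NIL and Ler overlapped. The difference Cvi minus Ler was −5.66 with a standard error of 0.16 (95% confidence interval −6.01 to −5.30, adjusted p = 7.14e-09 in limma), or 50.5-fold, and ranked 5 by size among all 22746 probe sets. Since the Cvi signal was near the floor of the array, the size depends on the background, and it was −4.49 on the scale of log2 of the signal plus 16. Of its 20 nearest measured genes with a name, from AT1G34340 to AT1G34660, 3 were called between Cvi and Ler, none of them at 2-fold. Whether the Cvi sequence differs under the probes of this or any other locus was not tested.

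AT2G39040, on chromosome 2, was also lower in Cvi. It gave 72.5, 69.3 and 68.8 on the NIL arrays, 41.2, 68.8 and 64.4 on the Cvi arrays, and 1437, 1378 and 1549.7 on the Ler arrays. Here Ler stood alone, and the NIL had the low signal of Cvi. The difference Cvi minus Ler was −4.68 (standard error 0.17, adjusted p = 5.12e-08 in limma), or 25.6-fold, and ranked 16 by size among all probe sets.

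AT1G71695 completed the loci lower in Cvi by at least 2-fold. Its signals were 313, 343 and 278 in the NIL, 91.9, 133 and 117 in Cvi, and 357, 372 and 345 in Ler. Every Cvi array lay below every other array, with a difference Cvi minus Ler of −1.67 (standard error 0.14, adjusted p = 2.36e-05 in limma), or 3.18-fold.

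Of the loci higher in Cvi, AT2G35380 differed the most clearly. It gave 533, 469 and 561 on the NIL arrays, 1165, 1168 and 1269 on the Cvi arrays, and 461, 587 and 440.1 on the Ler arrays. The Cvi arrays were close to each other and above all others, and the difference Cvi minus Ler was 1.29 (standard error 0.13, adjusted p = 7.74e-05 in limma), or 2.44-fold. AT1G68850 gave 711, 419 and 536 in the NIL, 1131, 787 and 928 in Cvi, and 371, 520.1 and 460.2 in Ler. Its Cvi signals exceeded all others, although the spread within each genotype was wider, and the difference Cvi minus Ler was 1.07 (standard error 0.21, adjusted p = 0.006 in limma), or 2.1-fold. Without Cvi replicate 1 it was 0.94, under 2-fold (adjusted p = 0.00393 in limma).

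AT5G06730 was higher in Cvi at a low signal. It gave 18.9, 13.2 and 14.5 on the NIL arrays, 59.8, 33.6 and 25.6 on the Cvi arrays, and 14.8, 16.0 and 13.5 on the Ler arrays. Cvi array 1 was the highest of the Cvi arrays, and the lowest Cvi array still lay above all others. The difference Cvi minus Ler was 1.34 (standard error 0.26, adjusted p = 0.00687 in limma) and was 0.99 without Cvi replicate 1 (adjusted p = 0.000624 in limma), just under 2-fold. Over the alternative fits it ranged from 0.81 to 1.61, so it fell under 2-fold in another setting too. Of the 3 loci higher in Cvi at 2-fold, AT2G35380 alone stayed above 2-fold without Cvi replicate 1. The next locus in name order, AT5G06720, is 1 of the 11 without a probe set in the annotation used.

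**Figure D2:**
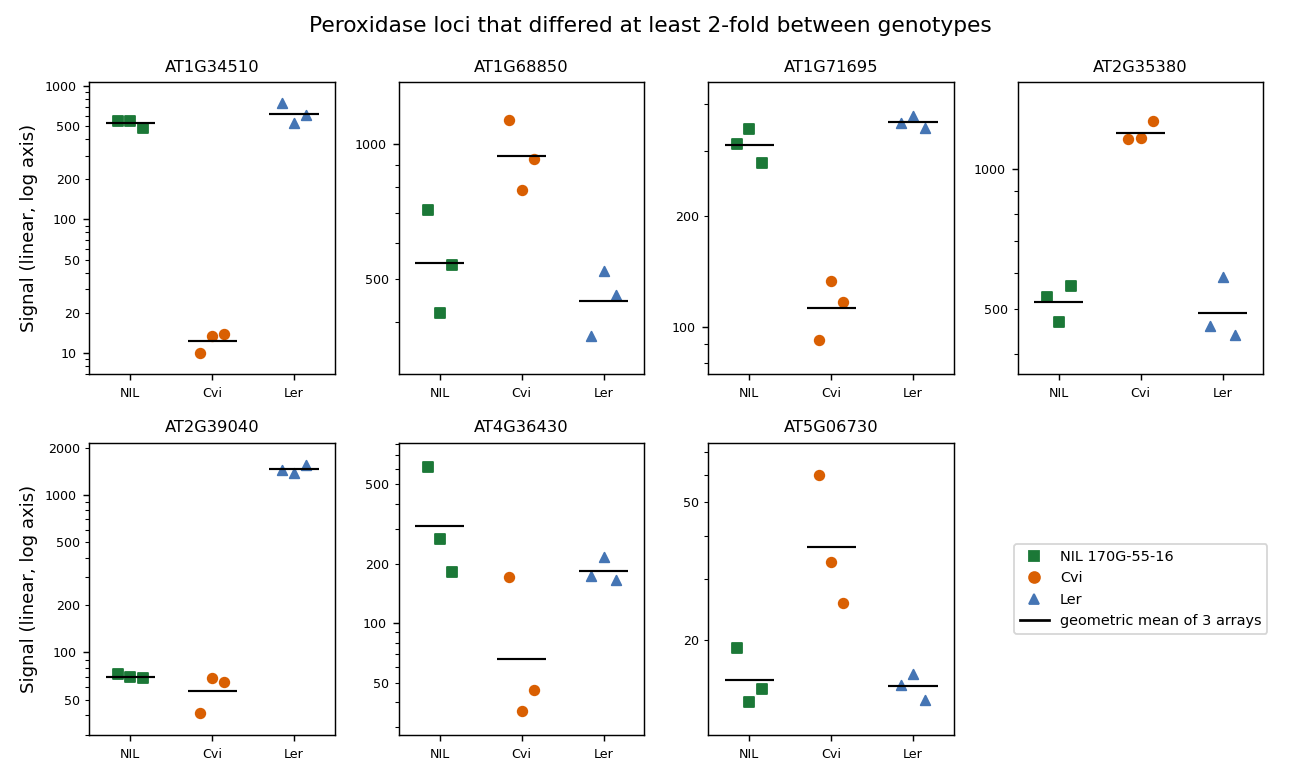
Signal (linear intensity on log axes that differ between panels) of the 7 peroxidase loci called with a fold of at least 2 in any comparison, with 1 point per array and a bar at the geometric mean of the 3 arrays of NIL, Cvi and Ler. The Cvi arrays do not overlap with those of the NIL or Ler at AT1G34510, AT1G68850, AT1G71695, AT2G35380 and AT5G06730. At AT2G39040 the NIL lies with Cvi, and Ler gave 1378 to 1549.7.

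The remaining 9 called loci differed between Cvi and Ler by less than 2-fold. AT3G21770 had the widest difference of those lower in Cvi, with 889, 973 and 999.6 in the NIL, 556, 567 and 700.0 in Cvi, and 1268, 1021 and 1052 in Ler (difference Cvi minus Ler −0.88, standard error 0.13, adjusted p = 0.00106 in limma). AT3G28200 gave 482, 507 and 566 in the NIL, 269, 322 and 321 in Cvi, and 425, 486 and 494 in Ler (difference −0.63, adjusted p = 0.0049 in limma). The Cvi arrays were the lowest at both loci. AT4G11290, in the brightest 10%, gave 1945, 1884 and 1799 in the NIL, 1208, 1493 and 1335 in Cvi, and 2229.7, 1880.2 and 1932 in Ler (difference −0.58, adjusted p = 0.00614 in limma). AT5G64100 gave 5264, 6026 and 5472 in the NIL, 4041, 3349 and 3707 in Cvi, and 5090.3, 6094 and 5359 in Ler (difference −0.58, adjusted p = 0.00704 in limma). PRX71 lies close to AT5G64100 on chromosome 5, with 1 other measured named gene between them, and was not called.

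PRXR1, AT5G40150 and AT1G14550 were also lower in Cvi. PRXR1 gave 6023, 5789 and 6032 in the NIL, 5125, 5058 and 5069 in Cvi, and 7049.8, 7152 and 6024 in Ler, with a difference Cvi minus Ler of −0.40 (adjusted p = 0.021 in limma). The Cvi signals of PRXR1 lay below those of both others. AT5G40150 gave 171, 185 and 205 in the NIL, 123, 134 and 124 in Cvi, and 171, 171 and 207 in Ler (difference −0.52, adjusted p = 0.0118 in limma). AT1G14550 gave 174, 165 and 135 in the NIL, 114, 83.6 and 74.0 in Cvi, and 133, 140.2 and 123 in Ler (difference −0.57, adjusted p = 0.0423 in limma). Leaving out 1 library ended the call of AT1G14550 for 7 of the 9 libraries, the exceptions being NIL replicate 3 and Cvi replicate 1. It was also lost under quantile normalization, in a fit to the 6 arrays of Cvi and Ler, and with log2 of the signal plus 16 (adjusted p up to 0.134 over all alternatives). The call of PRXR1 was lost without Cvi replicate 3, Ler replicate 1 or Ler replicate 2 and in the 6-array fit, and that of AT5G40150 without Ler replicate 3.

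Higher in Cvi by less than 2-fold were AT2G22420 and AT5G39580. AT2G22420 gave 98.9, 108 and 93.0 in the NIL, 86.9, 98.1 and 108 in Cvi, and 69.8, 67.2 and 62.6 in Ler, with a difference Cvi minus Ler of 0.55 (adjusted p = 0.00847 in limma). AT5G39580 gave 61.2, 61.2 and 52.2 in the NIL, 151, 72.8 and 82.6 in Cvi, and 52.2, 61.2 and 40.4 in Ler (difference 0.94, adjusted p = 0.0324 in limma). Cvi array 1 was the highest at AT5G39580, and without that replicate the difference was 0.62 (adjusted p = 0.0113 in limma). The call of AT5G39580 was lost when any NIL replicate, Ler replicate 1 or Ler replicate 3 was left out, in the 6-array fit and with log2 of the signal plus 16.

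Calls between Cvi and Ler were also counted by brightness. Of the 12 peroxidases in the brightest 10%, 3 were lower in Cvi than in Ler and 0 were higher, where 11.8% of all probe sets of that class were called. Of the 21 in the middle range, 7 were lower and 4 higher (background 17.3%), and of the 10 in the dimmest 33.3%, 1 was higher and 0 lower (background 6.12%). These shares were not tested. By position, the 43 loci lie on all 5 chromosomes, with 8, 8, 6, 10 and 11 loci on chromosomes 1 to 5.

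The second comparison set the NIL against Ler. The Cvi arrays do not enter its differences. They do enter the spread that the 3 genotypes share in the 1 fit, Cvi array 1 included, and so its p-values. Of the 43 peroxidases, 2 were called (4.65%), against a background of 0.356% of all probe sets. Both were lower in the NIL (background 0.255%) and 0 were higher (background 0.101%). At a fold of at least 2, 1 was called (2.33%, background 0.189%), and the same number passed by a confidence interval without 0 (background 0.237%). At an unadjusted p under 0.05, 6 of the 43 (14.0%) passed in limma, and 3.84% of all probe sets did. None of the 3 shared probe sets was called, and 2 were without Cvi replicate 1. The median difference was 0.02 over the 43 loci and −0.02 over all probe sets, and 42 of the 43 loci differed by less than 2-fold.

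AT2G39040 had the second largest difference on the whole array in this comparison, where it ranked 2 of 22746. With 68.8 to 72.5 on the NIL arrays and 1378 to 1549.7 on the Ler arrays, the groups were far apart. The difference NIL minus Ler was −4.37 with a standard error of 0.17 (95% confidence interval −4.75 to −3.99, adjusted p = 1.33e-06 in limma), or 20.7-fold. In contrast, the NIL and Cvi differed by 0.31 (95% confidence interval −0.07 to 0.69, adjusted p = 0.319 in limma). The comparisons of Cvi and of the NIL with Ler share the Ler arrays.

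Other genes of chromosome 2 also differed between the NIL and Ler. Over the whole array, 52 named genes were called in this comparison, and 44 of them lie on chromosome 2 (2.03% of its 2169 measured named genes), from AT2G18620 to AT2G40010. AT2G39040 lies within this stretch. So do the peroxidase loci AT2G18980, AT2G22420, AT2G24800, AT2G34060, AT2G35380 and AT2G37130, none of which was called between the NIL and Ler. Of the 20 measured named genes nearest to AT2G39040, from AT2G38860 to AT2G39230, 0 were called between the NIL and Ler. Among the same genes, 1 was called between Cvi and Ler, at less than 2-fold. Just beyond these, AT2G39310 was lower in the NIL than in Ler (−2.66, adjusted p = 7.48e-06 in limma). Around the 8 peroxidases of this chromosome with a probe set of their own, between 0 and 2 of the 20 nearest genes were called in that comparison.

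**Figure D3:**
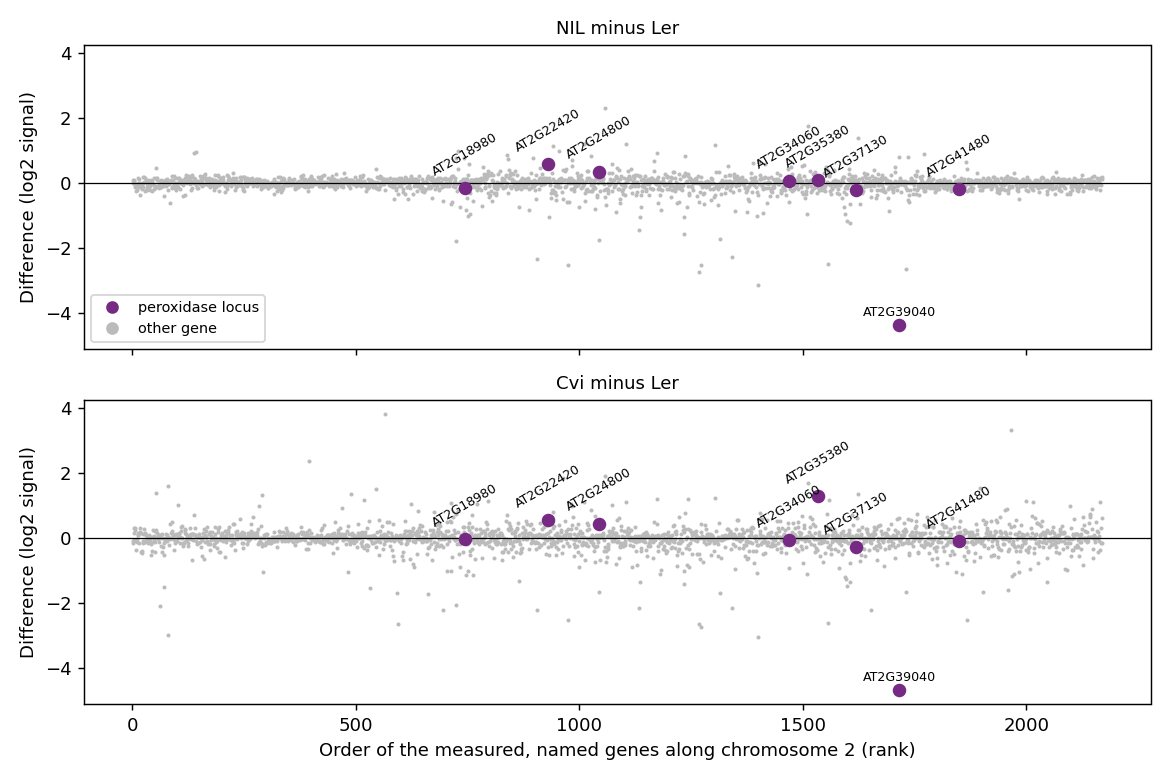
Difference on the log2 scale (upper panel NIL minus Ler, lower panel Cvi minus Ler) of 2169 measured named genes in their order along chromosome 2, with 8 peroxidase loci as large points. AT2G39040 lies far below 0 in both panels (−4.37 and −4.68), whereas AT2G35380 lies at 1.29 only in the lower panel.

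Of the other chromosome 2 peroxidases with a probe set of their own, none was called between the NIL and Ler. AT2G35380, which was higher in Cvi, had a difference NIL minus Ler of 0.08 (95% confidence interval −0.21 to 0.36). Around it, 0 of the 20 nearest genes, from AT2G35080 to AT2G35570, were called in any comparison. AT2G22420 was higher on each NIL array (93.0 to 108) than on any Ler array (62.6 to 69.8), a difference of 0.59 (standard error 0.11) that did not pass over all probe sets (adjusted p = 0.081 in limma). It passed without Cvi replicate 1, at 0.59 (adjusted p = 0.00611 in limma), and in a fit to the 6 arrays of the NIL and Ler alone. Its signals in the NIL and Cvi overlapped, with a difference of 0.04 (95% confidence interval −0.21 to 0.29). AT2G24800 had a difference NIL minus Ler of 0.35 (adjusted p = 1.0 in limma). The shared probe set of AT2G38380 and AT2G38390 was lower on each NIL array than on any Ler array (−0.49, adjusted p = 0.411 in limma). It was called lower in Cvi than in Ler (−0.59, adjusted p = 0.015 in limma). That of AT2G18140 and AT2G18150 was higher on each NIL array than on any Ler array (0.58). Neither was called between the NIL and Ler, and both passed without Cvi replicate 1 (adjusted p = 0.0482 and 0.0309 in limma).

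Outside chromosome 2, AT5G15180 was lower in the NIL than in Ler. It gave 327, 433 and 326 on the NIL arrays, 471, 473 and 485 on the Cvi arrays, and 623, 562 and 595 on the Ler arrays. The genotypes did not overlap, with the NIL lowest, Cvi between and Ler highest. The difference NIL minus Ler was −0.73 (standard error 0.12, adjusted p = 0.0397 in limma), while Cvi minus Ler was −0.32 (adjusted p = 0.131 in limma). NIL minus Cvi was −0.41 (adjusted p = 0.0607 in limma), and −0.42 without Cvi replicate 1 (adjusted p = 0.0365 in limma). The call was lost without NIL replicate 1 or 3, Cvi replicate 2 or 3, or any Ler replicate and also under quantile normalization, with the replicate number as a block and with a trend and robust estimation.

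The third comparison set the NIL against Cvi. Of the 43 peroxidases, 13 were called (30.2%), against a background of 10.8%. Of these, 9 were higher in the NIL (background 5.23%) and 4 were lower (background 5.61%). At a fold of at least 2, 5 were called (11.6%, background 3.39%), as by a confidence interval without 0 (background 3.45%). None of the 3 shared probe sets was called, and 1 was without Cvi replicate 1. This comparison shares the Cvi arrays with that of Cvi against Ler, so its calls are given as values beside the first.

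Of the loci called at 2-fold between Cvi and Ler, AT1G34510, AT1G71695, AT2G35380 and AT5G06730 were called at 2-fold between the NIL and Cvi as well, AT5G06730 only with Cvi replicate 1. The difference NIL minus Cvi was 5.42 for AT1G34510 (standard error 0.16, adjusted p = 1.24e-08 in limma), or 42.8-fold, and 4.26 on the scale of log2 of the signal plus 16. It was 1.46 for AT1G71695 (standard error 0.14, adjusted p = 7.57e-05 in limma). Both loci were higher in the NIL. It was −1.21 for AT2G35380 (standard error 0.13, adjusted p = 0.000146 in limma) and −1.28 for AT5G06730 (standard error 0.26, adjusted p = 0.0104 in limma), both lower in the NIL. Without Cvi replicate 1, AT5G06730 had a difference of −0.93 (adjusted p = 0.00119 in limma). Over the alternative fits its difference ranged from −1.55 to −0.78. AT1G68850 was lower in the NIL by less than 2-fold (−0.79, standard error 0.21, adjusted p = 0.0339 in limma). The call of AT5G06730 was lost without NIL replicate 2 or 3 and in a fit to the 6 arrays compared. That of AT1G68850 was lost without NIL replicate 2 or 3, Cvi replicate 3 or Ler replicate 3, in the 6-array fit, with the replicate number as a block and with log2 of the signal plus 16 (adjusted p up to 0.136).

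AT4G36430 was called at 2-fold only against Cvi, and its replicates varied the most. It gave 610.3, 265 and 182 on the NIL arrays, 172, 36.3 and 46.3 on the Cvi arrays, and 172, 216 and 166 on the Ler arrays. NIL array 1 and Cvi array 1 were each the highest of their genotype, and every NIL array still lay above every Cvi array. The difference NIL minus Cvi was 2.23 (standard error 0.55, adjusted p = 0.0268 in limma), or 4.68-fold, and 2.91 without Cvi replicate 1 (adjusted p = 0.000106 in limma). Cvi minus Ler was −1.47 (adjusted p = 0.119 in limma), and −2.16 without Cvi replicate 1 (adjusted p = 0.000873 in limma). The call against Cvi was lost without NIL replicate 1 or 2, Cvi replicate 2 or 3, or Ler replicate 2 or 3, in the 6-array fit and with log2 of the signal plus 16 (adjusted p up to 0.112).

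Loci that differed from Cvi by less than 2-fold were mostly higher in the NIL. These were AT1G14550 (difference NIL minus Cvi of 0.82, adjusted p = 0.00803 in limma), AT3G28200 (0.77), AT3G21770 (0.66), AT5G64100 (0.60), AT5G40150 (0.56) and AT4G11290 (0.48, adjusted p = 0.0197 in limma). Each of these had been lower in Cvi than in Ler. AT4G33420 was lower in the NIL than in Cvi, with signals of 739, 680.3 and 682 on the NIL arrays, 1105, 885 and 1108 on the Cvi arrays, and 834, 959 and 812 on the Ler arrays (difference NIL minus Cvi −0.55, adjusted p = 0.0132 in limma). Its Ler arrays lay between, except that 1 of them exceeded the lowest Cvi array. The call of AT4G11290 was lost without any 1 NIL replicate or Cvi replicate 3 and in the 6-array fit, and that of AT4G33420 without NIL replicate 2 or 3.

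**Figure D4:**
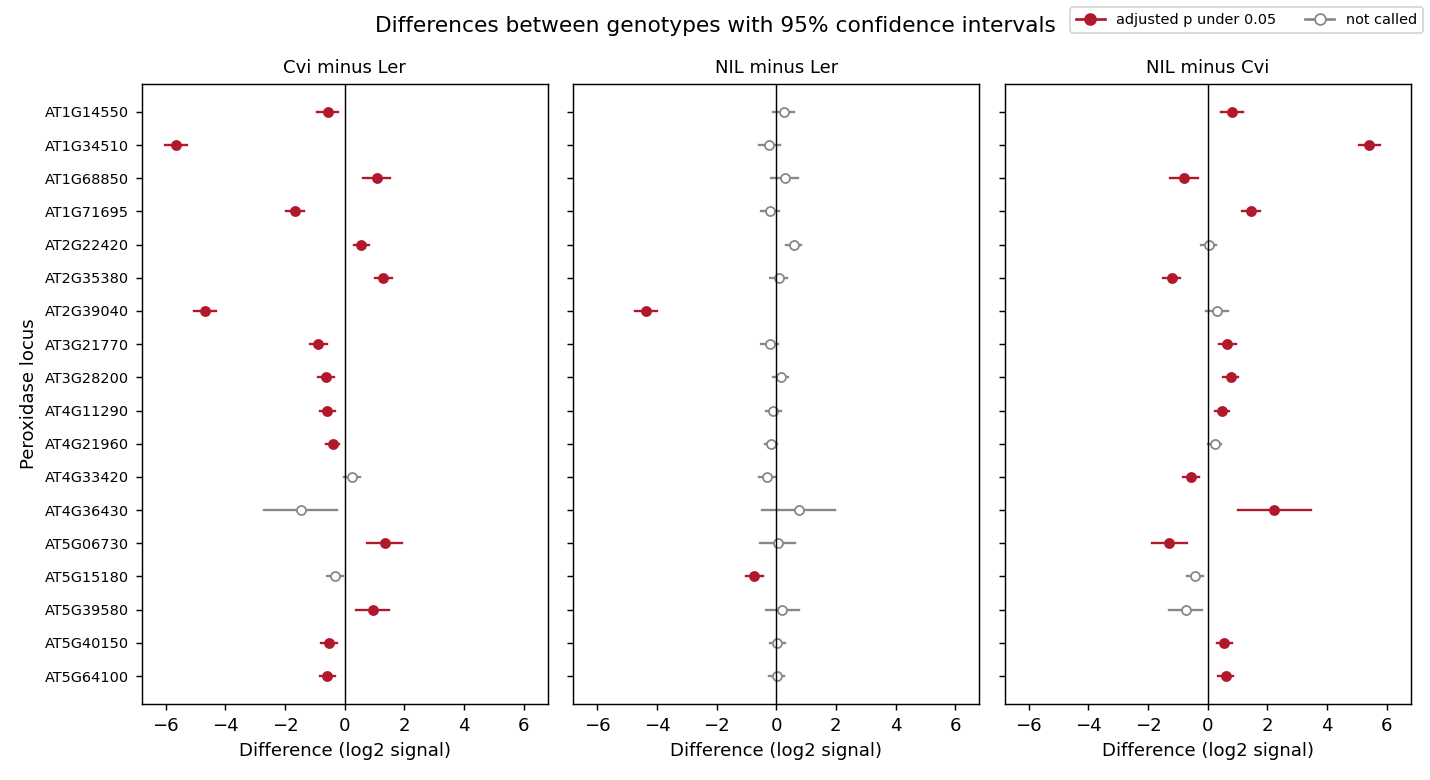
Differences on the log2 scale (points) with 95% confidence intervals (lines) of the 18 peroxidase loci called in at least 1 comparison, in panels for Cvi minus Ler, NIL minus Ler and NIL minus Cvi, with filled points where the adjusted p is under 0.05. Called points number 15, 2 and 13 in the panels, and AT2G39040 is the only one called at 2-fold between the NIL and Ler.

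In all, 18 of the 43 loci (41.9%) were called in at least 1 comparison, against a background of 14.8% of all probe sets, and 25 in none. Without Cvi replicate 1, AT1G44970 of these passed between Cvi and Ler (0.35, adjusted p = 0.0235 in limma) and between the NIL and Cvi (−0.40, adjusted p = 0.0162), and AT1G49570 between the NIL and Cvi (−0.43, adjusted p = 0.00799). With all arrays, for these 25, the difference Cvi minus Ler lay between −0.27 and 0.45, NIL minus Ler between −0.29 and 0.35, and NIL minus Cvi between −0.33 and 0.24. Within a genotype, the highest of the 3 arrays was at least 2-fold the lowest at 2 of the 43 loci in the NIL (AT4G36430 and PRX52, background 0.264%), at 3 in Cvi (AT4G36430, AT5G06730 and AT5G39580, background 6.55%) and at 0 in Ler (background 0.136%). With 3 arrays against 3, an exact permutation test of a single locus cannot give a p below 0.1. Precision is limited by there being 3 arrays a genotype.

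Other genes of peroxidase chemistry and of the tissue were taken from 13 lists with 120 genes, of which 16 genes are named on the array here. For these lists, measured means named in the annotation used, and probe sets without a gene name may cover more of the genes. The lists of superoxide dismutases and of markers of xylem, root cap, dividing cells and phloem have no named gene, so the cell types that these would mark could not be checked. NADPH oxidases, which make the superoxide from which hydrogen peroxide is formed, had 3 of 10 listed genes measured and 0 called in any comparison. RBOHE gave 85.8, 120.5 and 102 on the NIL arrays, 298, 121 and 136 on the Cvi arrays, and 107, 147 and 106 on the Ler arrays, with Cvi array 1 the highest. Catalases and ascorbate peroxidases had 2 of 11 measured and 0 called. The measured ones were the ascorbate peroxidase genes SAPX and TAPX, and no listed catalase was measured. Genes of the Casparian strip had 2 of 9 measured and 0 called.

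Genes of lignin synthesis moved in both directions between Cvi and Ler. Of 18 monolignol genes, 2 were measured: HCT was lower in Cvi (−0.45, standard error 0.10, adjusted p = 0.0147 in limma) and CCR2 was higher (0.74, standard error 0.17, adjusted p = 0.0148 in limma). HCT gave 1929, 2183 and 2002 in the NIL, 1657, 1671 and 1527 in Cvi, and 2323, 2273 and 2025 in Ler. CCR2 gave 93.0, 69.7 and 69.5 in the NIL, 137, 101 and 126 in Cvi, and 61.0, 82.5 and 74.7 in Ler. At both genes Cvi did not overlap with the other genotypes, and CCR2 was also lower in the NIL than in Cvi (−0.65, adjusted p = 0.0315 in limma, lost without NIL replicate 2 or 3, Cvi replicate 3 or Ler replicate 3, in the 6-array fit and with the replicate block). The laccase gene LAC16, 1 of 17 listed laccases measured, was higher in Cvi than in Ler (0.62, standard error 0.18, adjusted p = 0.049 in limma). The call of HCT was lost without Cvi replicate 3, Ler replicate 1 or Ler replicate 2, that of CCR2 without Ler replicate 1 or 3, and that of LAC16 without NIL replicate 1, Cvi replicate 3 or any Ler replicate, in the 6-array fit, with a trend and robust estimation and with log2 of the signal plus 16.

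UPB1, a transcription factor gene known to repress peroxidase genes in the Arabidopsis root, was 1 of 2 regulators measured of 4 listed, and 0 were called. It gave 276, 205 and 223 on the NIL arrays, 90.7, 217 and 196 on the Cvi arrays, and 283, 283 and 262 on the Ler arrays. Cvi array 1 was the lowest, and the difference Cvi minus Ler was −0.82 (adjusted p = 0.0831 in limma), or −0.42 without Cvi replicate 1 (adjusted p = 0.026 in limma).

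Of 16 listed root hair genes 3 were measured, and 1 was called. EXPA7 (862 to 1348 over the 9 arrays) and EXPA18 (1188 to 1556), expansins of root hair cells, were not called. XTH26, a wall enzyme gene of root hairs, gave 20.2, 21.2 and 23.9 in the NIL, 54.0, 43.9 and 53.7 in Cvi, and 25.3, 17.0 and 28.8 in Ler. It was higher in Cvi than in Ler (1.12, standard error 0.18, adjusted p = 0.00212 in limma) and lower in the NIL than in Cvi (−1.21, adjusted p = 0.00151 in limma). The marker of green shoot tissue, LHCB4.1, 1 of 8 listed, gave 366, 347 and 366 in the NIL, 200.2, 311 and 348 in Cvi, and 352, 407 and 399 in Ler, and was not called. No gene of these lists was called between the NIL and Ler. Without Cvi replicate 1, the NADPH oxidase gene RBOHI (−0.72, adjusted p = 0.00116 in limma) and EXPA7 (0.39, adjusted p = 0.0129) passed between Cvi and Ler, and RBOHI, EXPA7, HCT and the Casparian strip gene SGN1 between the NIL and Cvi. The part of these genes and cell types in the peroxidase differences was not tested.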

How the data were processed

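RNA from root tips was hybridized to 9 ATH1 arrays, 3 per genotype. The deposited values are 1 linear intensity per probe set, normalized by the authors. MAS5 and RMA stand in the submitters' processing notes without a version, and what each did is not stated in the sources used here. No array was normalized again in the main analysis, and no probe-level file was used.

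From the 22810 probe sets, 64 controls were dropped. Of the remaining 22746, the platform annotation gives 1 gene for 13513, several for 503 and none for 8730. Gene identifiers were matched to locus tags through a RefSeq gene table (TAIR10.1), which served for names, chromosomes and gene order alone, since the build behind the files is not named. No table of promoter or protein sequences was used here. The loci without a probe set in the annotation used are AT1G05240, AT1G05250, AT1G05260, AT1G14540, AT3G32980, AT3G49110, AT3G49120, AT5G06720, AT5G22410, AT5G42180 and AT5G67400. Probe sets without a gene in that annotation may measure them.

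The log2 intensity was fitted to genotype over all 9 arrays with lmFit and eBayes of limma 3.58.1 in R 4.3.3, with no filter on low values, and p-values were adjusted over 22746 probe sets. The fit was tested on simulated data. The fold given is 2 to the size of the log2 difference. The members, gene lists, tests and alternatives were chosen with earlier results of these data known. Full values are given for loci called at 2-fold or more, the 10 brightest and 3 dimmest, and neighbouring members, and other called loci were added after their values were seen. From the other lists, called genes and a few uncalled markers were named. Same-numbered arrays of different genotypes deviated together no more than others (r from −0.2592 to 0.2317 over 9 pairs). Pairs with different numbers had r from −0.2627 to 0.2814 (18 pairs). The main fit left the replicate number out. With 3 arrays a genotype, these correlations cannot show whether same-numbered arrays shared a batch.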

Additional observations from a re-analysis of the deposited data

How the results depend on the processing

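Of the 30 calls over the 3 comparisons (15 between Cvi and Ler, 2 between the NIL and Ler, 13 between the NIL and Cvi), 20 held in each of 16 alternative fits (15 for the dim AT5G06730). These were quantile normalization, leaving out the dimmest 33.3%, the replicate number as a block, a fit to 6 arrays, a trend with robust estimation, array weights, log2 of the signal plus 16, and leaving out each array in turn. Counts that moved by over 1.5 times were, for Cvi against Ler, 29 with array weights, 7 with a 95% confidence interval without 0 and a 2-fold minimum, and 6 with an adjusted p under 0.05 and a 2-fold minimum. For the NIL against Cvi these were 20, 5 and 5. For the NIL against Ler, the count was 4 with array weights and 1 with quantile normalization, the replicate block, a trend with robust estimation, and either 2-fold minimum. With the replicate block the counts were 15, 1 and 12. Leaving out 1 array gave 12 to 18 for Cvi against Ler, 1 to 3 for the NIL against Ler, and 9 to 16 for the NIL against Cvi, and leaving out Cvi replicate 1 gave the highest of each. Array weights gave Cvi array 1 a weight of 0.088. No called difference changed sign. Among uncalled ones, AT2G22420, NIL minus Cvi, was −0.08 with array weights and −0.05 (without Cvi replicate 1) to 0.11 on leaving out 1 array, negative also without NIL replicate 2 (−0.02). AT2G35380, NIL minus Ler, was −0.00205 (without Ler replicate 3) to 0.21 on leaving out 1 array. Signal over background was not measured, so folds at dim probe sets depend on the background.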

Other observations

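PRX52, a peroxidase of lignin formation, gave its highest signals on NIL array 1 (26.6) and Cvi array 1 (21.6), against 11.1 to 12.4 on the other arrays of both genotypes, and its Ler signals were 12.6, 15.4 and 11.4. AT4G36430 was also highest on NIL array 1 (610.3) and Cvi array 1 (172), and did not show this on Ler array 1 (172, with 216 on Ler array 2). By smaller margins, AT1G14550, AT1G68850, AT4G08780 and AT5G06730 were likewise highest on array 1 in the NIL and Cvi but not in Ler. AT1G68850 and AT5G06730 are among the loci called higher in Cvi than in Ler. What lies behind this pattern was not tested.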
